A study of Mus musculus with 16 samples.

Results

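CD105 cells from the femurs of PolG D257A/D257A mice aged 3 months are described here by the non-reference bases in their mitochondrial DNA. Both libraries of sorted CD105 cells, replicates 1 and 2, were set against the 12 libraries of Thy, 6C3, Thy_6C3, CD24, CD24_CD29 and CD29 cells, 2 of each, out of 16 libraries in the series. CD45 libraries were not among these other subsets, and each CD105 library was compared with the 6 other libraries of its own replicate number. All groups carry the PolG change on both alleles and no wild-type mouse was analysed here, so no value below measures the effect of the genotype. Cells were sorted from digested femurs, and the tagged DNA was sequenced as bulk ATAC-seq in paired reads of 100 bases. The sources used here give neither the sorting gates nor the mice behind each library, and the p-values below therefore speak only of the spread among these libraries, part or all of which may be technical. The tables analysed hold mitochondrial positions, so the sort labels were not checked against Eng, which encodes CD105, or against the genes of the other markers.

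PolG copies mitochondrial DNA, and the D257A change removes the activity that corrects its copying errors. A cell holds many copies of this circular genome, and a mutation may sit on some of them, a state called heteroplasmy. Some changed copies arise early and pass to many descendants, while others stay within a few cells. Loci of this genome encode subunits of respiratory complexes I, III and IV and of ATP synthase, and the rRNAs and tRNAs that translate them. CD105, or endoglin, is a co-receptor for ligands of the TGF-beta family, carried by endothelial cells and by some skeletal stromal and progenitor cells. In a bulk library, an allele held by few cells at a high level and one held by many at a low level cannot be told apart.

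Alleles are named by reference base, position on the GRCm38 mitochondrial genome (numbered from 1) and changed base. The fraction of an allele is its count over the coverage of its position, and 48897 alleles are possible at the 16299 positions. A library's counted alleles were those with 5 counts or more and a fraction of 1% or higher. The sequences below show the sites on which the differences described for CD105 turn, read from the reference bases of the deposited coverage table, on the plus strand, with the changed bases in capitals. The first is a stretch of mt-Rnr2, the gene of the large ribosomal RNA, where 6 T bases were read as G in CD105 replicate 2.
mt-Rnr2 run, chrM:2530-2554: caggtcggTTTcTaTcTatttacga
The next 4 are the sites with the smallest p-values in the test per allele, C9395T in the tRNA gene TrnG, C12352T and T13126C in ND5 and T325C in mt-Rnr1.
C9395T, chrM:9383-9407: aggatcttactcCcttagtataatt
C12352T, chrM:12340-12364: agattatattctCcaacaacaacga
T13126C, chrM:13114-13138: cattcggaagcaTctttgcaggatt
T325C, chrM:313-337: ccaccgcggtcaTacgattaaccca
Then follow the alleles that were counted in all other 6 subsets of a replicate number but not in CD105, A8266C in ATP6 and G272A in mt-Rnr1.
A8266C, chrM:8254-8278: gctggagccgtaAttacaggcttcc
G272A, chrM:260-284: aaacgaaagtttGactaagttatac
The last 2 sites had their highest fraction (G5463A in COX1) and their lowest fraction (C16121A in the control region) in CD105 cells in both replicate numbers.
G5463A, chrM:5451-5475: ggtcaaccaggtGcacttttaggag
C16121A, chrM:16109-16133: cttaatgccaaaCcccaaaaacact

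Mean coverage per position was 39931 in CD105 replicate 1 and 23690 in CD105 replicate 2. The other subsets had 13534, 24686 and 77252 (lowest, median and highest) in replicate 1 and 6569, 18618 and 36822 in replicate 2. CD105 coverage lay inside both ranges (exact permutation p = 0.449, two-sided, adjusted p = 0.528 over 9 measures). A single library stood apart: Thy replicate 2 had 2530 counted alleles, where the other 11 libraries outside CD105 had at most 416, so results were also computed without it.

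CD105 cells held few counted alleles, and almost none that were theirs alone. There were 98 counted alleles in CD105 replicate 1 and 120 in CD105 replicate 2, a mean of 109 ± 15.6 (SD, n = 2). The other subsets had 113, 144 and 280 (lowest, median and highest) in replicate 1 and 119, 234 and 2530 in replicate 2. CD105 was below all 6 in replicate 1, and in replicate 2 only 6C3, with 119, was lower. The log2 number was 1.0 lower in CD105 on average (exact permutation p = 0.184, two-sided, adjusted p = 0.429 over 9 measures). That difference did not pass the test, and it was -0.70 without Thy replicate 2.

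Alleles counted in no other of the 7 subsets of the replicate number were 2 in CD105 replicate 1 and 9 in CD105 replicate 2. The other subsets held 10, 39 and 167 of them (lowest, median and highest) in replicate 1 and 11, 110.5 and 2375 in replicate 2, so CD105 lay below all 6 both times. As a share of a library's counted alleles this was 2.04% and 7.5% in CD105, against 8.85% to 59.6% and 9.24% to 93.9% in the other subsets. On the log2 scale of the number plus 1, CD105 was lower by 3.57 on average. The exact permutation p was 0.0408, two-sided, where the smallest that 49 assignments allow is 0.0204, and the adjusted p over 9 measures was 0.367. A single measure at that smallest p would adjust to 0.184, so no measure could pass alone in this design, and a missed threshold here says nothing on whether the subsets differ. Without both Thy libraries the difference was -3.03 (exact permutation p = 0.0556). After all libraries were thinned to a mean coverage of 6569, CD105 had 9 and 11 such alleles, against 13 to 165 and 13 to 2416 in the other subsets, still the lowest of 7 in both replicate numbers (exact permutation p = 0.122). In all 22 alternative settings computed for each, CD105 stayed lower in allele number and in alleles counted in 1 subset. The exact permutation p rose to as much as 0.776 and 0.408 among them.

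**Figure D1:**
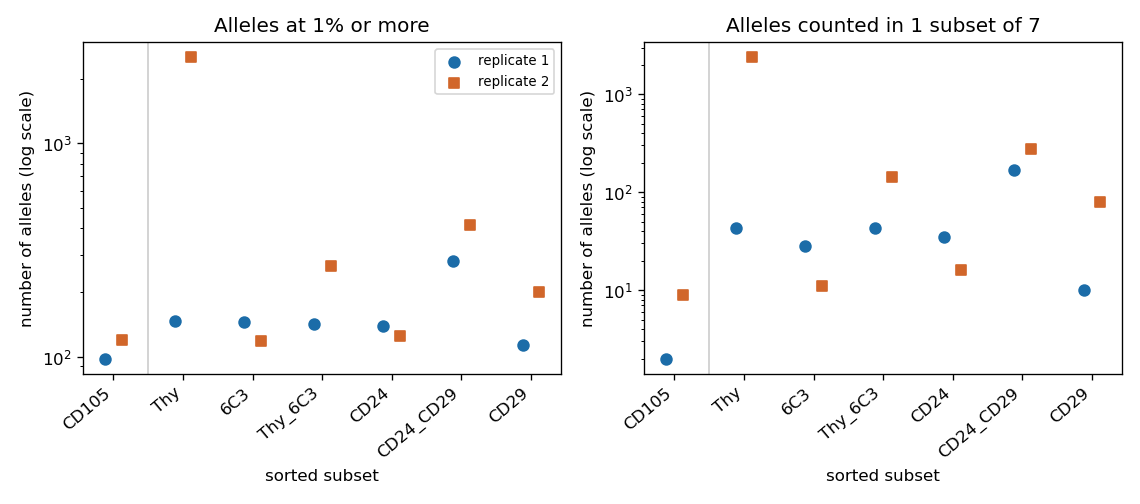
Number of alleles at 1% or more with at least 5 counts, and number counted in no other of the 7 subsets, per library on a log axis (circles replicate 1, squares replicate 2), with CD105 leftmost. CD105 has 98 and 120 counted alleles and 2 and 9 counted in it alone, the lowest of the 7 subsets in both replicate numbers for the second measure.

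Most alleles of CD105 cells were spread over many subsets. Of the 98 in replicate 1, 53 (54.1%) were counted in all 7 subsets, and of the 120 in replicate 2, 60 (50.0%) were. In the other subsets the alleles counted in all 7 made up 18.9% to 46.9% of the library's alleles in replicate 1 and 2.37% to 50.4% in replicate 2. Since the same 53 or 60 alleles enter every library, this share moves with the number of counted alleles. Between 1% and 2% stood 59 CD105 alleles in replicate 1 and 71 in replicate 2, and 12 and 10 reached 5%.

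The alleles counted in CD105 alone were mostly just above the threshold. In replicate 1 they were G8359A, which changes E145K in ATP6, a subunit of ATP synthase, and A16065C in the control region, the noncoding stretch with the replication and transcription starts. G8359A was at 1.15% in CD105 (exact 95% interval 1.06 to 1.25), against 0.323%, 0.839% and 0.966% (lowest, median and highest) in the other subsets. A16065C was at 1.09% (0.985 to 1.21), against 0.807% to 0.987%, and its interval reached down to the highest of them. In replicate 2, T8566C (F214L in ATP6) was at 1.31% (1.17 to 1.45), against 0.0838% to 0.593% in the other subsets. A9714G (T86A in ND3, a subunit of complex I) was at 1.15% (1.02 to 1.30), against 0.184% to 0.901%. These 4 alleles were thus also read in the other subsets, below the threshold. Intervals cover counting error only, with each read taken as independent, and leave out the spread between libraries.

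The other prominent alleles of CD105 replicate 2 were a run of T-to-G changes in mt-Rnr2, in the stretch printed first above. The run was delimited in this library itself, as the longest row of closely spaced T>G alleles at 0.5% or more. No such search was made in the other libraries, so its higher level in CD105 replicate 2 is no test. All 6 T bases from position 2538 to position 2546 carried G. T2538G was at 2.35% (exact 95% interval 2.14 to 2.58), T2539G at 7.64% (7.26 to 8.04) and T2540G at 6.07% (5.73 to 6.43). T2542G was at 6.94% (6.57 to 7.32), T2544G at 2.25% (2.04 to 2.48) and T2546G at 0.719%. In CD105 replicate 1 the same 6 changes were at 0.0669% to 0.255%, so the run was seen in 1 of the 2 CD105 libraries. Thy replicate 2 had 0.554% to 1.60%, and every other library of the other 6 subsets had at most 0.486%. Thy replicate 2 was high in T>G over the whole genome, at 66.5 per 10000 with 757 counted T>G alleles. CD105 replicate 2 had 13 counted T>G alleles, 5 of them in the run. T2540G, T2542G and T2544G were counted in CD105 alone, while T2538G and T2539G were also counted in Thy replicate 2. The other 21 possible changes at these 9 positions were at no more than 0.226% in CD105 replicate 2. Coverage there was 16973 to 18332, and at T2538G it was 0.774 of the library's mean, against 0.741 to 0.804 in the other subsets. Over the whole genome, T>G averaged 10.2 per 10000 in CD105 replicate 2 and 9.65 once the run was left out, and 9.65 in CD105 replicate 1. The other subsets had 8.65, 8.83 and 9.53 (lowest, median and highest) in replicate 1 and 7.88, 8.53 and 66.5 in replicate 2. CD105 was thus the highest of 7 in replicate 1 and was exceeded by 2 subsets in replicate 2 (exact permutation p = 0.857, two-sided).

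**Figure D2:**
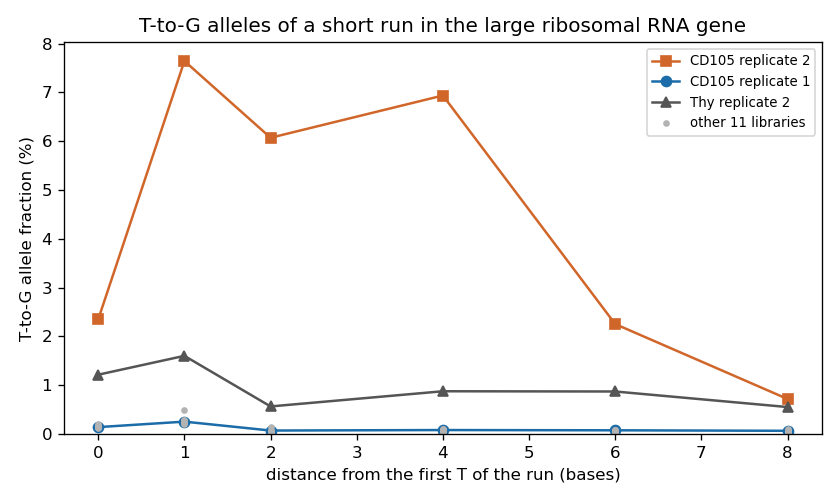
Fraction of reads with G (percent) at the 6 T bases of the mt-Rnr2 run, plotted by distance in bases from the first of them, for CD105 replicates 2 and 1, Thy replicate 2 and the other 11 libraries (gray points). The run was chosen from CD105 replicate 2, which peaks at 7.64%. Thy replicate 2 peaks at 1.60%, and the other libraries stay at or below 0.486%.

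A single allele in each replicate number was counted in all other 6 subsets and missed the threshold in CD105. In replicate 1 it was A8266C (I114L in ATP6), at 0.956% in CD105 (exact 95% interval 0.871 to 1.05), against 1.03%, 1.29% and 1.88% (lowest, median and highest) in the other subsets. In replicate 2 it was G272A in mt-Rnr1, the small ribosomal RNA, at 0.785% in CD105 (0.663 to 0.923), against 1.30%, 1.75% and 4.18%. A8266C was 0.110% in CD105 replicate 2 and G272A was 0.266% in CD105 replicate 1, both inside the range of the other subsets, so neither was low in both CD105 libraries.

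Apart from T2539G in replicate 2, the most abundant alleles of CD105 cells were abundant in the other 6 subsets of the same number too. Most differed between the replicate numbers, but C7166T and C14024T were high in both. In CD105 replicate 1, C10658T in ND4, a subunit of complex I, had 19.7%, against 16.0%, 17.4% and 21.7% (lowest, median and highest) in the other subsets. G3079A in ND1, also of complex I, followed with 19.1%, against 15.6% to 20.4%. C7953T lies where ATP8 and ATP6 overlap, changes S63L in ATP8 and leaves ATP6 unchanged. It had 10.3% in CD105 replicate 1, against 7.60% to 14.1%. In CD105 replicate 2, C11959T in ND5, another subunit of complex I, had 23.1%, against 18.4%, 22.5% and 24.9% in the other subsets. C1051T in the tRNA gene TrnV had 14.8%, against 9.81% to 17.9%, and C3085T in ND1 had 7.85%, against 5.84% to 10.1%. C11959T was at 0.167% in CD105 replicate 1 and C10658T at 0.524% in CD105 replicate 2, low in the other subsets of those numbers too. All of these CD105 values lay inside the range of the other 6. So did C7166T, at 9.39% in CD105 replicate 1 and 7.53% in CD105 replicate 2, and C14024T, at 5.16% and 9.42%. T2539G of the mt-Rnr2 run did not: it was at 7.64% in CD105 replicate 2, against 0.245% to 1.60%.

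Levels of the alleles counted in all 7 subsets mostly placed CD105 inside the range of the other 6. CD105 lay between the lowest and the highest of the other 6 at 47 of 53 alleles (88.7%) in replicate 1 and at 52 of 60 (86.7%) in replicate 2. For the other subsets this share ran from 45.3% (CD24_CD29) to 88.7% (6C3) in replicate 1. In replicate 2 it ran from 60.0% (Thy) to 80.0% (6C3). CD105 was highest at 3 and 1 of the alleles and lowest at 3 and 7. The median log2 ratio of CD105 over the mean of the other 6 was -0.02 in replicate 1 and -0.08 in replicate 2, with a root mean square of 0.19 and 0.24. In replicate 2 only CD29, at -0.10, had a lower median. This level did not differ from that of the other subsets beyond their spread (exact permutation p = 0.469, two-sided, adjusted p = 0.528 over 9 measures).

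**Figure D3:**
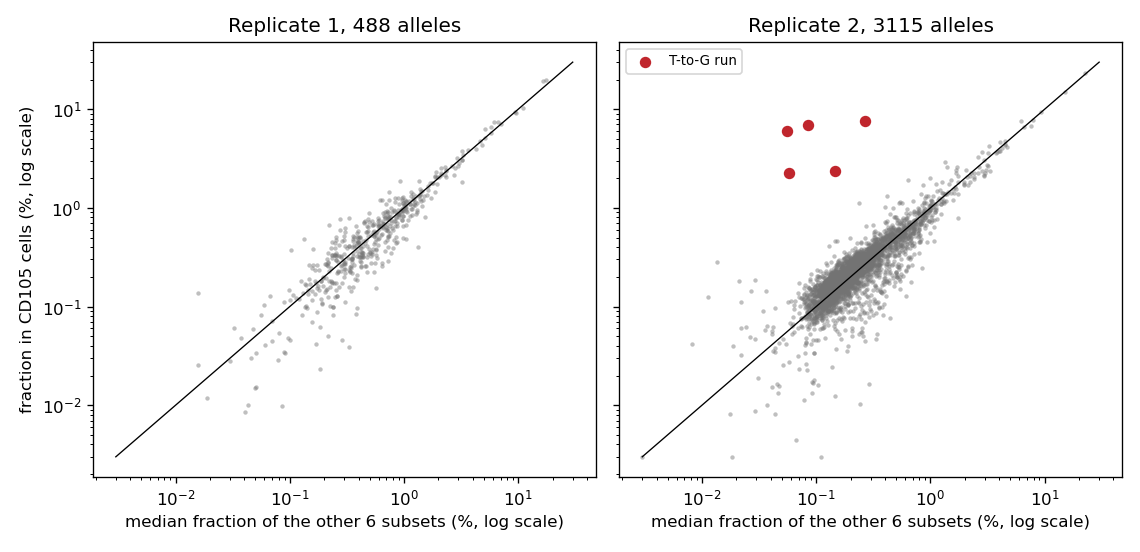
Fraction in CD105 (vertical axis) against the median fraction of the other 6 subsets (horizontal axis), in percent on log axes, for every allele counted in at least 1 of the 7 subsets of a replicate number. Fractions under the lower end of the diagonal, 0 included, are drawn at it. Points follow the diagonal of equal fractions at the top of both panels, and the 5 counted alleles of the mt-Rnr2 run, in red, lie above it in replicate 2.

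The nearest subset to CD105 differed between the replicate numbers. Distance was the root mean square difference of arcsine square root fractions over the alleles counted in at least 1 of the 7 subsets. In replicate 1, CD29 was nearest to CD105 at 0.0185, 6C3 followed at 0.0193 and CD24_CD29 was farthest at 0.0487. In replicate 2, 6C3 was nearest at 0.0127, CD24 followed at 0.0144 and Thy was at 0.0615. Of the 3115 alleles of replicate 2, 2375 were counted in Thy alone, so the distance to Thy is large by the choice of alleles and the other distances rest mostly on alleles that Thy brought in. Without both Thy libraries, over 740 alleles, 6C3 was again nearest to CD105 at 0.0231 and CD24 next at 0.0253, and CD24_CD29 was farthest at 0.0598. In replicate 1, over 445 alleles without Thy, CD29 was again nearest at 0.0181, then 6C3 at 0.0194, and CD24_CD29 was farthest at 0.0506. Pearson's r of CD105 with another subset ran from 0.649 (CD24_CD29) to 0.937 (6C3) over 488 alleles in replicate 1. In replicate 2 without Thy it ran from 0.440 (CD24_CD29) to 0.882 (6C3) over 740 alleles. These correlations are descriptions across alleles of the same libraries, and alleles carried on the same genomes are not independent. The mean distance of CD105 to the other 6 was 0.0272 in replicate 1 and 0.0263 in replicate 2. The other subsets had 0.0285, 0.0341 and 0.0517 (lowest, median and highest) and 0.0249, 0.0294 and 0.0644. CD105 was the most central subset in replicate 1 and was preceded by 6C3 in replicate 2 (exact permutation p = 0.224, two-sided, adjusted p = 0.429 over 9 measures), and it did not pass. Without both Thy libraries the mean distance of CD105 in replicate 2 was 0.0364, above those of 6C3 (0.0321) and CD24 (0.0350). CD105 was the nearest neighbour of 6C3, Thy_6C3, CD24 and CD29 in replicate 1. In replicate 2 it was the nearest neighbour of Thy only, and 6C3 was nearest to CD105, Thy_6C3, CD24, CD24_CD29 and CD29.

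Shared alleles can be given as a share of each list. CD105 replicate 1 shared 85 counted alleles with 6C3, which are 86.7% of the CD105 alleles and 58.2% of the 6C3 alleles. With CD29 it shared 79, which are 80.6% of the CD105 alleles and 69.9% of the CD29 alleles. CD105 replicate 2 shared 91 with 6C3, 75.8% of the CD105 alleles and 76.5% of the 6C3 alleles. With CD24_CD29 it shared 83, 69.2% of the CD105 alleles and 20.0% of those of CD24_CD29.

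CD105 was seldom the extreme subset at the same allele in both replicate numbers. Among 1355 alleles whose mean over the 7 subsets was 0.5% or more in at least 1 number, CD105 was the highest in both at 4 (0.295%) and the lowest in both at 6 (0.443%). The other 6 subsets were the highest in both at 10 (CD29, 0.738%) to 130 alleles (Thy, 9.59%) and the lowest in both at 10 (Thy, 0.738%) to 80 (CD24, 5.90%). Within 1 replicate number, CD105 was at either edge at 16.1% of these alleles in replicate 1 and at 14.3% in replicate 2. CD29 had less in replicate 1, 13.6%, and 6C3 in replicate 2, 13.7%, and the other subsets ran up to 46.6% in replicate 1 and 58.8% in replicate 2. Many of these alleles enter through Thy replicate 2, and no test was made of these counts.

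**Figure D4:**
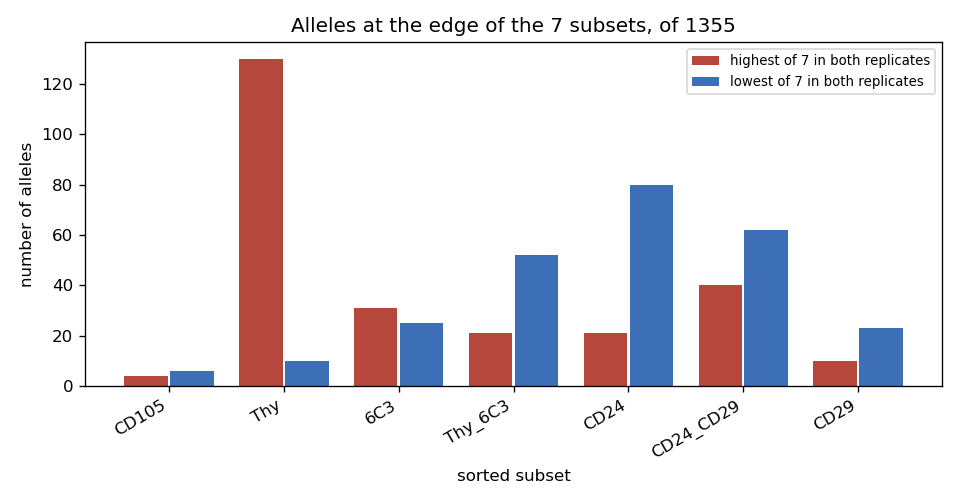
Number of the 1355 alleles at which a subset was the highest (red bars) or the lowest (blue bars) of the 7 subsets in both replicate numbers, with CD105 leftmost. CD105 has 4 and 6, the shortest bar of each color, against 130 highest in Thy and 80 lowest in CD24.

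Alleles to name were sought in a wider set than these 1355, the 1970 alleles at 0.5% or more in a CD105 library or in the mean of the other 6 of a number. There CD105 was the highest in both numbers at 13 and the lowest in both at 9, and CD29 was the highest at 11. The 4 named next are among the 13 and were low in level. G5463A (A46T in COX1, a subunit of complex IV) was at 0.130% in CD105 replicate 1, against 0% to 0.0472% in the other subsets. It was at 0.637% in CD105 replicate 2, against 0% to 0.213%. G2872A (G41D in ND1) was at 0.108% and 0.966% in CD105, against at most 0.0858% and 0.449%. A493G in mt-Rnr1 was at 0.860% and 0.391% in CD105, against 0.381% to 0.630% and 0% to 0.311%. T4017C (F35S in ND2, a subunit of complex I) was at 0.359% and 0.619%, against at most 0.334% and 0.577%. All of them entered the search only through a CD105 library: A493G through replicate 1, and G5463A, G2872A and T4017C through replicate 2. They were also chosen for CD105 being highest, so their order is no test.

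Of the named alleles at which CD105 stood lowest in both numbers, T3975C (M21T in ND2) reached the highest fraction. It was at 0.245% in CD105 replicate 1, against 0.265%, 0.405% and 0.590% (lowest, median and highest) in the other subsets. In CD105 replicate 2 it was at 2.26%, against 2.85%, 3.03% and 4.46%. T2014C in mt-Rnr2 was at 0.169% and 0.0825% in CD105, against 0.224% to 0.868% and 0.188% to 1.47%. C16121A in the control region was at 1.73% and 1.70% in CD105, against 1.76% to 2.22% and 1.78% to 2.18%, a small gap beside its even level in all libraries. G6114T (G263W in COX1) was at 0.365% and 0.317%, against 0.410% to 0.605% and 0.356% to 0.844%.

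No single allele passed the test of CD105 against the other subsets across all alleles. edgeR's quasi-likelihood test with Benjamini-Hochberg adjustment compared CD105 with the mean of the other 6 at the 3475 alleles counted in at least 1 of the 14 libraries, with replicate number as a term. It called 0 alleles (0% of those tested), and its lowest adjusted p was 0.9997. An unadjusted p under 0.05 was reached by 19 alleles (0.547%), 8 higher (0.23%) and 11 lower (0.317%) in CD105. Evenly spread p-values would put a share of 0.05 there with no difference at all, so the test was conservative. All 7 subsets share its estimate of the spread, Thy included, whose libraries had 147 and 2530 counted alleles. What made the test conservative was not tested. With a conservative test, a call of 0 does not show that the alleles were alike. DESeq2 and a quasi-binomial model per allele also called 0, with 38 of the 3475 alleles each at an unadjusted p under 0.05. In 6 comparisons with 1 subset each, edgeR called 0 alleles against every subset. Of the 3475 alleles, 14 (6C3) to 160 (CD24_CD29) had an unadjusted p under 0.05, a share below 0.05 for every subset. Many of the 3475 alleles entered by being high in Thy replicate 2. Without both Thy libraries, with the alleles chosen anew, edgeR called 0 of 1115. There 18 had an unadjusted p under 0.05, again a share below 0.05. The fit had 6 residual degrees of freedom.

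The alleles with the smallest p-values, none of which passed, give the size of what was read. Each adjusted p was 0.9997 with edgeR. C9395T in TrnG was at 0.776% in CD105 replicate 1, against 0.0487%, 0.274% and 1.09% (lowest, median and highest) in the other subsets. In CD105 replicate 2 it was at 0.114%, against 0.00459% to 0.103%, and the log2 odds difference was 2.35 ± 0.73 (SE). CD105 was the highest in replicate 2 and was exceeded by 1 subset in replicate 1. C11030T, a synonymous change in ND4, was at 0.479% and 0.184% in CD105, with a difference of 2.15 ± 0.82 (SE). The other subsets had 0.0394% to 1.34% in replicate 1 and 0% to 0.183% in replicate 2. CD24 was the highest of them both times, above CD105 in replicate 1 and nearly level with it in replicate 2. The T2540G, T2542G and T2539G alleles of the mt-Rnr2 run had differences of 3.55 ± 1.27, 3.16 ± 1.29 and 2.28 ± 0.96 (SE), which rest on replicate 2. Without CD105 replicate 2 the T2539G difference was 0.11, that of T2542G 0.15 and that of T2540G 0.59.

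Lower in CD105, again without passing, were C12352T (S204F) and T13126C (I462T) in ND5. C12352T was at 0.0842% in CD105 replicate 1, against 0.0995%, 0.382% and 1.08% in the other subsets. In CD105 replicate 2 it had 0 of 26598 reads, which allows up to 0.0113% at 3 counts, against 0.0130%, 0.0535% and 0.370%. T13126C was at 0.0965% and 0.00420% in CD105, the second being 1 read of 23808, against 0.206% to 1.07% and 0% to 0.213%, with a difference of -2.68 ± 0.79 (SE). T325C in mt-Rnr1 was at 0.146% and 0.0165% in CD105, against 0.158% to 0.648% and 0.100% to 1.13%, with a difference of -2.23 ± 0.71 (SE). T6895C in the tRNA gene TrnS1 was at 0.0340% and 0.0399%, against 0.0423% to 0.184% and 0.0398% to 1.12%. C12352T and T325C were below all other 6 subsets in both numbers. These differences leaned on single libraries: without CD105 replicate 2 that of T325C was -0.96 and that of C12352T was -2.02, and without CD105 replicate 1 they were -4.17 and -7.30. The T13126C difference was -1.63 without CD24_CD29 replicate 1 and -4.17 without CD105 replicate 1.

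Mutation load, the percent of bases that were not the reference base, averaged over positions, takes in sequencing errors as well as mutations. It was 0.429% in CD105 replicate 1 and 0.409% in CD105 replicate 2. The other subsets had 0.405%, 0.455% and 0.484% (lowest, median and highest) in replicate 1 and 0.385%, 0.461% and 1.11% in replicate 2. CD105 was the second lowest both times, above CD24. The CD105 mean was 0.419% ± 0.0138 (SD, n = 2), and it did not differ beyond the spread between subsets (exact permutation p = 0.245, two-sided, adjusted p = 0.429 over 9 measures). The difference of -0.0869 percentage points was -0.0314 without Thy replicate 2. Alleles under 1% gave 0.412% and 0.390% of it, and counted alleles gave 0.0163% and 0.0189% (exact permutation p = 0.286 and p = 0.224).

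By kind of change, the mean C>T fraction of CD105 was the lowest of the 7 subsets in both replicate numbers. C>T is a transition known from copying errors and from the deamination of cytosine. They averaged 11.51 per 10000 in CD105 replicate 1 and 11.28 in CD105 replicate 2 over the positions with a reference C. The other subsets had 11.53, 12.8 and 13.6 (lowest, median and highest) in replicate 1 and 11.51, 13.2 and 14.1 in replicate 2. CD24 was just above CD105 each time. The median over the same positions had another order, at 5.42 and 4.95 per 10000 in CD105, against 1.83 to 6.31 and 1.47 to 5.92, which made CD105 the third highest in both numbers. The mean was lower by 1.48 per 10000, with an exact permutation p of 0.0204, the smallest that 49 assignments allow, and an adjusted p of 0.245 over 12 classes, the value to which a single class at that smallest p must adjust. The test could thus call no single class, and it called 0 of 12. Without both Thy libraries the C>T difference was -1.29 (exact permutation p = 0.0556). Under 1%, C>T alleles gave 8.98 and 8.65 per 10000 in CD105, and there CD24_CD29 was lower in both numbers, with 7.84 and 7.48, and CD24 was lower in replicate 1, with 8.74. Counted alleles gave the remaining 2.54 and 2.63 per 10000 in CD105, from 21 and 19 counted C>T alleles, and 6C3 was lower in both, with 2.41 and 2.51. CD105 was thus the lowest in both numbers in the sum and in neither portion.

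**Figure D5:**
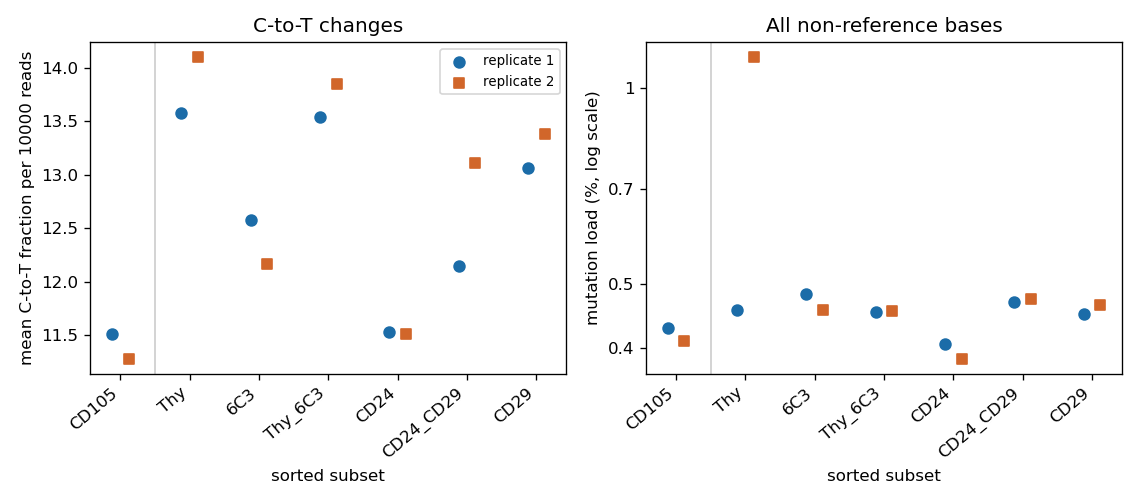
Mean C>T fraction per 10000 reads at reference C positions (axis not starting at 0) and mutation load in percent (log axis), per library (circles replicate 1, squares replicate 2), with CD105 leftmost. CD105 has 11.51 and 11.28 per 10000 C>T, the lowest of the 7 subsets in both replicate numbers, with CD24 just above, and Thy replicate 2 has a load of 1.11%.

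Transitions, the changes within purines or within pyrimidines, made up 55.1% of the counted alleles in CD105 replicate 1 and 58.3% in CD105 replicate 2. The other subsets had 53.5%, 58.8% and 70.0% (lowest, median and highest) in replicate 1 and 3.79%, 61.4% and 69.8% in replicate 2. The average difference was -0.386 percentage points (exact permutation p = 0.959, two-sided, adjusted p = 0.959 over 9 measures). It was -5.33 without Thy replicate 2, the library at 3.79%. The most frequent classes differed between the CD105 libraries, with 21 C>T, 16 T>C and 9 A>G in replicate 1 and 27 T>C, 21 A>G and 19 C>T in replicate 2.

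No gene group carried a load of counted alleles in CD105 that passed the test. Complex I genes, the largest group, had a load of 0.0196% per position in CD105 replicate 1 and 0.0182% in CD105 replicate 2, from 36 and 42 counted alleles. The control region had the highest load, 0.0566% and 0.0503%, from 25 and 23 alleles. Complex III, which is CYTB alone here, had the lowest in replicate 1, 0.00270% from 2 alleles, and 0.0112% in replicate 2. Genes of complex IV had 0.00931% and 0.0116%, and those of ATP synthase had 0.0217% and 0.0125%. The rRNA genes had 0.00980% and 0.0209%, where the run adds to replicate 2, and the tRNA genes had 0.0115% and 0.0243%. The test called 0 of 7 groups (exact permutation p of 0.184 to 0.449, adjusted p of 0.343 to 0.449). A single group could not have passed alone, since the smallest possible p is 0.0204 before adjustment.

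In the protein genes, missense alleles were the most frequent in CD105. They were 31 of the counted alleles in replicate 1 and 47 in replicate 2, which are 56.4% and 72.3%, beside 22 and 17 synonymous and 2 and 1 stop alleles. None of these 3 shares passed the test against the other subsets (adjusted exact permutation p = 0.694 for each). Even at the smallest possible p of 0.0204, a single share could not have passed alone after adjustment. The stop alleles of CD105 were shared with other subsets. G9775A (W106* in ND3) was at 2.52% in CD105 replicate 1, against 1.66%, 2.13% and 2.69% (lowest, median and highest). A13380T (K547* in ND5) was at 1.55% in CD105 replicate 1, against 0.934%, 1.39% and 3.75%. G9526A (W23* in ND3) was at 2.39% in CD105 replicate 2, against 1.56%, 3.31% and 4.39%. All 3 lay inside the range of the other subsets.

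Counted in both CD105 libraries were 38 alleles, of which 24 were counted in all 14 libraries, 22 lay in the control region and 7 were transitions. The other subsets had from 35 (CD29) to 48 (Thy) alleles counted in both of their libraries, so the number in CD105 lay inside their range. Among the highest were C7166T (H52Y in COX2, a subunit of complex IV), at 9.39% and 7.53% in CD105, and C14024T (C16Y in ND6, a subunit of complex I), at 5.16% and 9.42%. In the other subsets the medians were 9.37% and 6.23% for C7166T and 5.07% and 9.23% for C14024T. In the control region, A16099C was at 4.75% and 4.12% in CD105, against medians of 4.63% and 4.67%, T16133A at 3.91% and 3.81%, and T16105G at 3.40% and 3.63%. The control-region alleles were thus nearly level between the CD105 libraries, unlike C10658T and C11959T above.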

How the data were processed

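Values in the deposited tables are whole-number counts, per the file headers: reads covering a mitochondrial position, and reads with a given non-reference base there, for each library and without normalization. Tools named in the submitters' processing notes, with no role or order, are BWA 0.7.17, cutadapt 2.10 and bcl2fastq 2.20, and the builds named are GRCm38 and mm10. How the authors treated duplicate reads, low base quality and nuclear copies of the mitochondrial genome is not given in the sources used here. Low fractions can be moved by all 3. Genes came from the RefSeq annotation of GRCm38.p6, and codons from the reference bases of the coverage table.

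Single values were compared with an exact permutation test, two-sided, of the mean over replicate numbers of CD105 minus the mean of the other 6 subsets, over all 49 ways to name 1 library of each number CD105. P-values were adjusted by the Benjamini-Hochberg method over 9 single measures, 12 substitution classes, 7 gene groups and 3 coding classes. For alleles, the quasi-likelihood test of edgeR 4.0.16 under R 4.3.3 (threshold 0.05) was run on non-reference and reference counts as a pair of columns, with terms for library, subset and replicate number, and the scripts were checked on simulated data. DESeq2 1.42.0 and a quasi-binomial model were alternatives. The replicate number is in the main tests because CD105 is compared within it. The labels do not say that a number marks shared animals, but the deviations of same-numbered libraries from their subset means correlated at 0.344 to 0.850 in all 21 pairs of subsets. Other steps ran in Python 3.11.15 with Biopython 1.88, pandas 2.3.3, scipy 1.17.1, numpy 2.4.6 and matplotlib 3.10.9.

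Named alleles were the 5 with the smallest p in each direction, since none passed, the 5 highest in each CD105 library, those at which CD105 was highest or lowest of 7 in both numbers (up to 8 each), those counted only in CD105 or only missing there (up to 5), and counted alleles within 10 positions. CD45 enters 1 alternative and a separate observation. The values of some are given as ranges or counts. The members, lists and tests were chosen with earlier results of these data known. Alternatives were thresholds of 0.5% and 2%, thinned or divided counts, CD45 included, ends of the sequence left out, the median of the other 6, no replicate term and each library left out.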

Additional observations from a re-analysis of the deposited data

How the results depend on the processing

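With 49 assignments a single measure by itself cannot reach an adjusted p under 0.184 over 9 measures or 0.245 over 12 classes, and without a CD105 library the smallest exact permutation p is 0.143, so p-values of single measures do not show stability and only directions and sizes are compared. Leaving out each library in turn, the differences ran from 0.35 to 0.66 (log2 coverage), -0.149 to -0.0243 (load, percentage points), -0.0397 to -0.00515 (load of alleles at 1% or more), -0.110 to -0.0192 (load under 1%), -1.36 to -0.65 (log2 allele number), -3.90 to -3.0 (log2 number counted in 1 subset), -0.06 to -0.01 (log2 level of shared alleles), -0.00935 to -0.00725 (distance) and -1.74 to -1.23 per 10000 (C>T). The transition share turned direction: it ran from -5.92 to 5.14 percentage points with 1 library left out and was 2.74 at a threshold of 2%. The cause was not tested. Without the replicate block, the exact permutation p was 0.0549 for alleles counted in 1 subset and 0.0330 for C>T, each with an adjusted p of 0.396, and edgeR called 0 alleles. With all counts divided by 10, edgeR called 1 allele, T2540G (log2 difference 5.19, adjusted p = 0.0244, against 0.0244 to 1.0 over its alternatives). In the comparisons with 1 subset each, DESeq2 called 14 alleles, and edgeR called 0 to 2289 with 1 library left out, the 2289 without Thy replicate 1, when Thy replicate 2 alone stands for Thy and is assumed to vary like the other groups. These DESeq2 and edgeR fits with 1 library left out tested 3475 alleles each. Alternatives without both Thy libraries or without the mt-Rnr2 run were chosen after seeing the data. Depth limits the lowest fractions: 3 counts at the mean coverage of the shallowest library amount to 0.0457%.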

Other observations

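CD45 cells, a blood-lineage sort of the same series that was not among the other subsets above, can be set beside CD105. Their distance to CD105 was 0.0128 in replicate 1, where the nearest skeletal subset, CD29, was at 0.0184, and 0.0129 in replicate 2, where the nearest, 6C3, was at 0.0127, over alleles that mostly come from Thy replicate 2. Seen from CD45, the nearest of the 7 skeletal subsets was CD105 in replicate 1 but 6C3 in replicate 2. CD105 and CD45 shared 86 counted alleles in replicate 1, out of 98 in CD105 and 121 in CD45, and 95 in replicate 2, out of 120 in CD105 and 129 in CD45. The T-to-G changes of the mt-Rnr2 run were at no more than 0.332% in the CD45 libraries.

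Coverage of the complex IV genes, relative to the mean of the library, was 1.09 in CD105 replicate 1 and 1.07 in CD105 replicate 2, against 0.930 to 1.06 and 0.935 to 1.05 in the other 6 skeletal subsets. CD105 was the highest in both numbers, and the difference did not pass (exact permutation p = 0.0612, adjusted p = 0.429 over 7 gene groups). The ATP synthase genes, at 1.12 and 1.08 in CD105, lay inside the range of the other subsets.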
